A study of Homo sapiens with 12 samples.

Results

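The genes described here are 10 regulators of the G1 phase of the cell cycle, taken by name: the cyclins CCND1, CCND3 and CCNE1, the cyclin-dependent kinases CDK2, CDK4 and CDK6, the CDK inhibitors CDKN1A, CDKN1B and CDKN2A, and the retinoblastoma gene RB1. All 10 were found by symbol among the 40173 gene IDs of the expression table, each with its own ID. RNA of 624Mel cells, an established human melanoma line, had been sequenced in 4 conditions with 3 libraries each: cells transfected with a control siRNA (siCTRL), the same with 5 ng/mL interferon gamma (siCTRL + IFNγ), cells transfected with an siRNA against MITF (siMITF), and the same with 5 ng/mL IFNγ (siMITF + IFNγ). MITF is the transcription factor that maintains the melanocytic state, and the study lowers it to dedifferentiate the cells. IFNγ was given for 24 h and cells were harvested 48 h after transfection, so every condition, the controls included, had been through a transfection. Knockdown used a single MITF siRNA in a single line.

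The decision to leave G1 and copy the genome is taken by kinases that are active only when bound to a cyclin. D-type cyclins with CDK4 or CDK6 begin to phosphorylate the retinoblastoma protein RB1, cyclin E with CDK2 completes it, and RB1 then releases the E2F transcription factors that switch on DNA replication genes. INK4 inhibitors, among them p16INK4a from CDKN2A, hold CDK4 and CDK6, while CIP/KIP inhibitors such as p21 from CDKN1A and p27 from CDKN1B act on CDK2 complexes. In melanoma, CDKN2A loss and CDK4 mutation are classic predisposing lesions, and MITF has been described as an activator of CDK2, CDKN2A and CDKN1A.

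The values are in TPM, a relative transcript abundance scaled by transcript length, which allows levels to be compared between genes. TPM keep no read depth and therefore carry no counting interval here. The study's methods state that experiments used independent biological replicates, while the labels do not tie a library to a culture. In bulk RNA, fewer cells with a transcript and less of it per cell cannot be told apart. MITF lay at 187 to 229 TPM in siCTRL libraries and at 36.0 to 49.7 TPM in siMITF libraries, and IRF1, an IFNγ target, went from a mean of 2.49 to 88.0 TPM with IFNγ in siCTRL cells and from 3.08 to 155 TPM in siMITF cells. The melanocyte marker list (7 genes, none at 0) summed to 7932 to 9381 TPM in siCTRL libraries. Fibroblast, keratinocyte and leukocyte markers were low apart from KRT10, and KRT1 and CD3E were listed at 0 in all libraries. Mitochondrial transcripts took 7.42 to 16.9% of TPM, with replicate 2 lowest in each condition. Same-numbered libraries deviated together. The main fit was unpaired, so a fit with the replicate number as a block is quoted wherever it changes a call.

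In untreated control cells the levels of the 10 genes spanned from 520.5 TPM for CDK2 to 0.0893 TPM for CDKN1A. CDK2 and CDK4 (346 TPM) led, followed by CDKN2A (126), CCND1 (115), CCND3 (95.5), CDKN1B (56.9), RB1 (48.2), CDK6 (15.2) and CCNE1 (15.0). In this order CDKN2A and CCND1 overlapped between libraries, as did CDK6 and CCNE1, and every other pair of neighbours was separated. IFNγ alone left the order of siCTRL cells in place except that CCNE1 stood above CDK6, with overlapping libraries, and CCND1 and CCND3 now overlapped as well. In siMITF cells CDK4 (278 TPM) stood above CDK2 (193 TPM), with no overlap, CDKN2A (182 TPM) came close below CDK2, and CCND3 (130 TPM) stood above CCND1 (106 TPM). Here no pair of neighbours overlapped. With siMITF + IFNγ, CDK4 and CDK2 again led without overlap (239 and 167 TPM), whereas CDKN2A overlapped CCND1, CCND1 overlapped CCND3 and CDKN1B overlapped RB1.

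**Figure D1:**
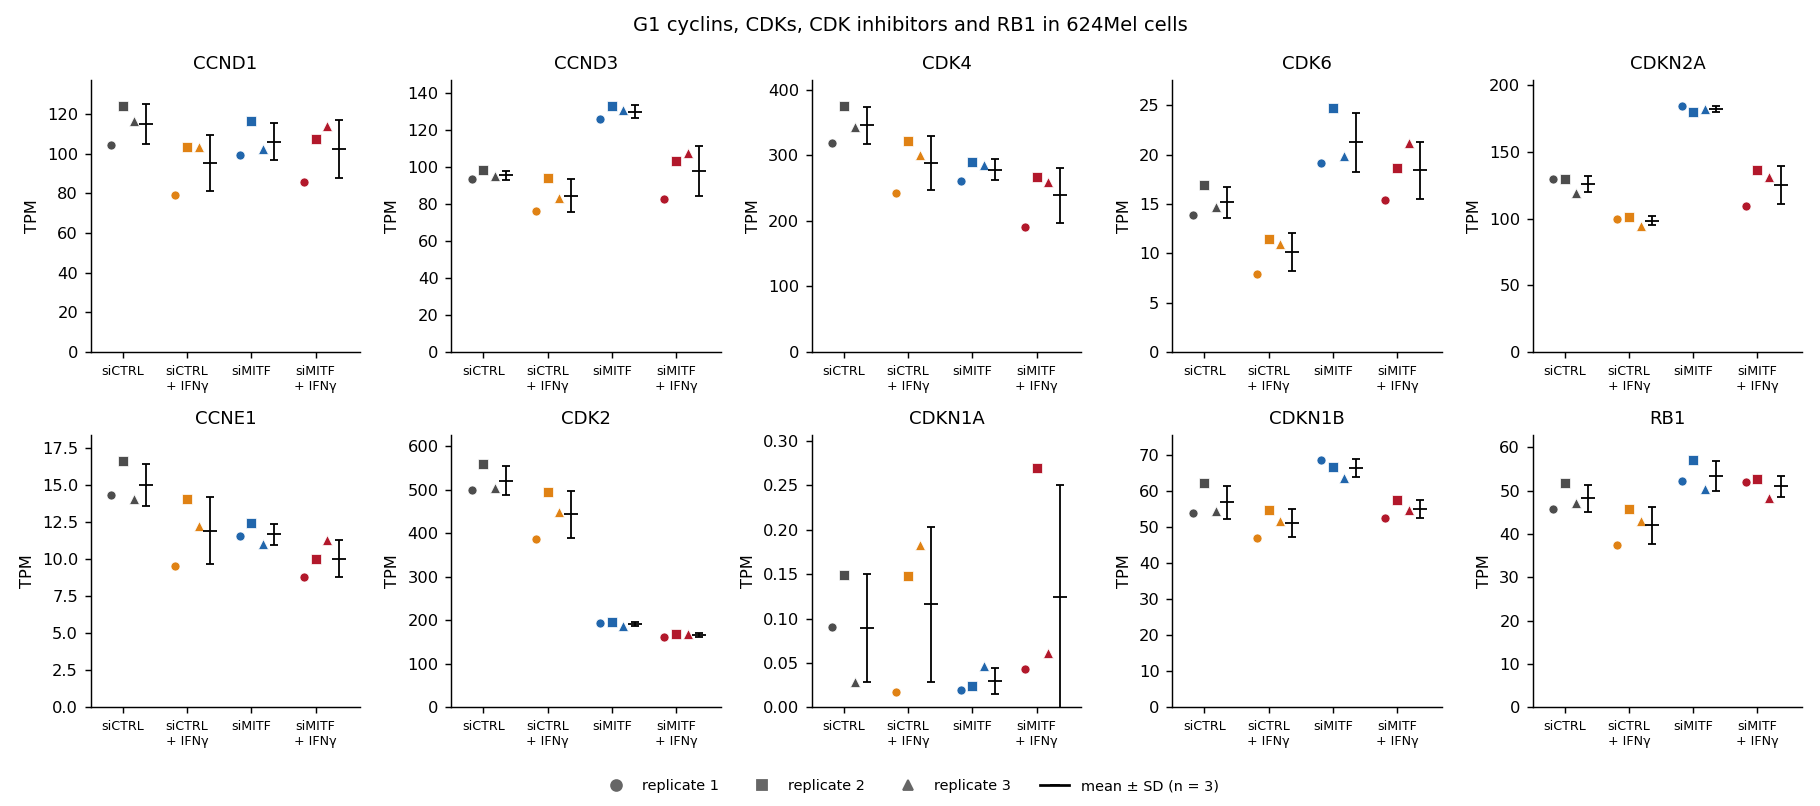
TPM of the 10 genes in each library (points, shaped by replicate number) of the 4 conditions, with the mean and SD of 3 libraries beside them; every axis starts at 0 and has its own range. CDK2 drops from 499 TPM or more in siCTRL libraries to 196 TPM or less in siMITF libraries, CDKN2A is highest in siMITF libraries, and CDKN1A stays at or under 0.270 TPM throughout.

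Of the 10 genes, 9 reached a mean of 2 TPM in a condition and were tested by limma among 12773 genes, and CDKN1A did not. A gene is called here when its p, adjusted over all genes tested, is under 0.05, and fold changes are on the log2(TPM + 1) scale. In siMITF against siCTRL cells, CDK6, CCND3 and CDKN2A rose, beside 21% of all tested genes called higher, and CDK2 fell, beside 13.8% called lower. CDK2 alone also passed a change of at least 1 on the log2 scale, beside 6.1% of all genes. The median log2 fold change of the 9 genes was 0.14, against 0.06 over all tested genes. With IFNγ present, siMITF against siCTRL gave higher CDK6, CDKN2A and RB1 (3 genes, background 18.4%) and lower CDK2 (1 gene, background 14.7%), again with CDK2 alone past the fold limit (background 5.68%). The median was 0.10 against 0.03.

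IFNγ raised none of the 9 genes in either background of cells. In siCTRL cells CDK6 and CDKN2A fell with IFNγ, beside 6.14% of all tested genes called lower and 6.8% called higher, and none of the 9 passed the fold limit (background 2.52%). Their median log2 fold change was -0.27, against -0.07 over all genes. In siMITF cells CCND3, CDKN1B and CDKN2A fell (background 12.2% lower and 7.99% higher), with none past the fold limit (background 2.95%) and a median of -0.21 against -0.10. Fitting the replicate number as a block raised the count of called genes from 4 to 7, from 4 to 6, from 2 to 7 and from 3 to 5 in these 4 comparisons and lost none of the calls. Over all 12773 tested genes the block also raised the calls, from 4448 to 6094, from 4229 to 5912, from 1652 to 3281 and from 2574 to 4556. Across all genes, the share of calls that were higher in siCTRL cells with IFNγ was 52.5%, and 41.7% after quantile normalization or 37.6% with the block. Groups without overlap were common among all tested genes. With siMITF 33% lay fully above and 22% fully below siCTRL, and 21.3% and 17% in IFNγ-treated cells. With IFNγ 11.7% lay fully above and 18.1% fully below in siCTRL cells, and 12.1% and 28.4% in siMITF cells.

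**Figure D2:**
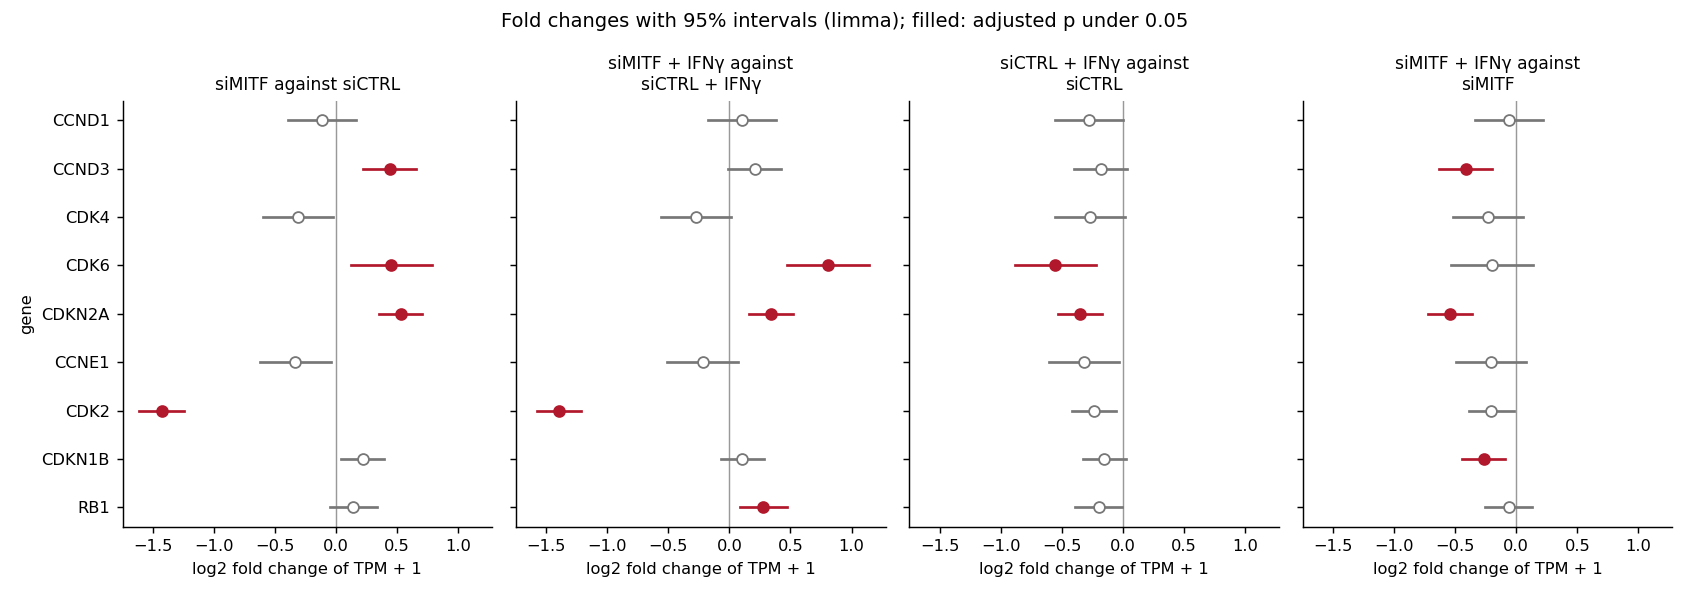
Log2 fold changes of TPM + 1 with 95% intervals from limma for the 9 tested genes in the 4 comparisons of siRNA and of IFNγ; filled red points have an adjusted p under 0.05. CDK2 lies near -1.4 in both siMITF comparisons, and no filled point lies above 0 in the IFNγ comparisons.

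D-type cyclins were represented by CCND1 and CCND3, which bind CDK4 and CDK6 and link growth signals to the cycle, while CCND2 stayed at or under 0.0387 TPM in every library. CCND1 measured 104, 124 and 117 TPM in siCTRL libraries, 79.2, 103 and 104 TPM with IFNγ, 99.2, 117 and 103 TPM in siMITF libraries, and 85.7, 108 and 114 TPM in siMITF + IFNγ libraries. Its groups overlapped except that all siCTRL + IFNγ libraries lay below the lowest siCTRL library. None of its changes passed the test: siMITF against siCTRL gave a log2 fold change of -0.11 (95% interval -0.39 to 0.17), and IFNγ in siCTRL cells gave -0.27 (-0.55 to 0.01, adjusted p = 0.199, or 0.0134 with the replicate block). CCND1 shares 497 exonic bases with LTO1 on the opposite strand, and LTO1 rose with siMITF (log2 fold change 0.36, adjusted p = 0.0159) from a mean of 11.2 to 14.7 TPM.

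CCND3 moved where CCND1 did not pass the test. It measured 93.4, 98 and 94.9 TPM in siCTRL libraries and 126, 133 and 131 TPM in siMITF libraries, with no overlap, and rose by 0.44 ± 0.10 (SE) on the log2 scale (adjusted p = 0.0046). In IFNγ-treated cells the corresponding libraries were 76.2, 93.7 and 82.9 TPM for siCTRL and 82.4, 103 and 107 TPM for siMITF, which overlapped (log2 fold change 0.21, adjusted p = 0.139, or 0.0347 with the block). Leaving out siMITF + IFNγ replicate 1, the lowest library of its group for CCND3, gave 0.32 with an adjusted p of 0.011. IFNγ lowered CCND3 in siMITF cells, by 0.42 ± 0.10 on the log2 scale (adjusted p = 0.0117), and gave -0.18 (adjusted p = 0.281) in siCTRL cells. As a share of D-type cyclin TPM, CCND3 made up 45.4% ± 1.61 (SD, n = 3) in siCTRL, 47.0% ± 2.33 for siCTRL + IFNγ, 55.0% ± 1.61 for siMITF and 48.8% ± 0.281 for siMITF + IFNγ libraries. The summed level was 210.5, 179.7, 236 and 200.1 TPM in the same order.

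CDK4 was the more abundant of the kinases that D-type cyclins bind. CDK6 changed more on the log2 scale with siMITF and with IFNγ in siCTRL cells. It did not change more with IFNγ in siMITF cells or with both treatments against untreated controls. CDK4 lies on chr12:57747727-57756013 (GRCh38, minus strand) and CDK6 on chr7:92604921-92836573 (minus strand). Their RefSeq promoters (GRCh38.p14, from 250 bases before to 50 after the start) are shown because MITF is known to bind E-boxes. Motifs were searched on both strands: the E-box CACGTG, the M-box core CATGTG, the E2F element TTTGGCGC, the GC box GGGCGG and the GAS element TTCNNNGAA. Capitals mark matches to the E-box and M-box core, and none of these matches overlap. The CDK4 promoter (chr12:57752261-57752560) holds 3 E-boxes and 1 M-box core, and the upstream CDK6 promoter (chr7:92836524-92836823) holds 1 E-box. A second CDK6 entry (chr7:92833910-92834209), not shown, holds none of the motifs searched. Among 34796 promoters of this length, 7.2% hold an E-box and 11.1% an M-box core. Of the other members, the entries of CCND3, CCNE1, CDKN1A and CDKN1B hold none of these letters except GC boxes, and CDK2 and CCND1 have no entry. The RB1 entry (chr13:48476200-48476499) holds 1 GAS match and no other motif searched. It lies inside the gene, whose annotated start is at 48303744, so the promoter at that start was not searched. The same holds for the entries of CDK4 (annotated start 57756013), CCND3 (42050357), CDKN1A (36676460) and CDKN1B (12685498). Neither promoter shown holds the E2F letters, which 0.652% of promoters hold, or the GAS letters, which 7.67% hold. Each holds 3 GC boxes, which 44.9% hold at least once.
CDK4 promoter: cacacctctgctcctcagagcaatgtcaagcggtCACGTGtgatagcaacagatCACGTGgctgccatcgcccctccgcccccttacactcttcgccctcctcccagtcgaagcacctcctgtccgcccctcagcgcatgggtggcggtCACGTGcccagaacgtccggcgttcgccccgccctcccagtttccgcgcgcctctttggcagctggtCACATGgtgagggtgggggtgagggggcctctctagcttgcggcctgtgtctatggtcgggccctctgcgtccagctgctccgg
CDK6 upstream promoter: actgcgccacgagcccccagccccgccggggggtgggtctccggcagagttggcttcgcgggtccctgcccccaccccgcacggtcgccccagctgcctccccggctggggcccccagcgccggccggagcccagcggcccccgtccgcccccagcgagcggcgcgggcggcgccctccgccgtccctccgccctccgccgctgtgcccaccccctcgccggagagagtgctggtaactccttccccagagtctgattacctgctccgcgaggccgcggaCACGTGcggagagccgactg

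CDK4 measured 319, 376 and 343 TPM in siCTRL libraries and 260, 289 and 285 TPM in siMITF libraries. Every siMITF library lay below every siCTRL library, as for 22% of all tested genes. The log2 fold change of -0.31 ± 0.13 (SE) missed the threshold (adjusted p = 0.0883) and passed it with the block (0.00267). With IFNγ the values were 243, 321 and 301 TPM in siCTRL cells and 190, 267 and 260 TPM in siMITF cells, which overlapped. The log2 fold change there was -0.28 (adjusted p = 0.133, or 0.00612 with the block), and replicate 1 was the lowest library in both of these groups. For IFNγ, CDK4 gave -0.27 in siCTRL cells (adjusted p = 0.221, 0.0134 with the block) and -0.23 in siMITF cells (adjusted p = 0.24, 0.0206 with the block). Of its 3094 annotated exonic bases, 44.2% are shared with TSPAN31, a tetraspanin gene on the opposite strand. TSPAN31 rose in siMITF cells by 1.15 on the log2 scale (adjusted p = 6.97e-06), from a mean of 18.4 to 42.1 TPM. The library kit does not keep strand, and how reads were divided between CDK4 and TSPAN31 was not tested.

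CDK6 was a minor kinase by level and rose with siMITF. Its siCTRL libraries held 13.9, 17.0 and 14.7 TPM and its siMITF libraries 19.1, 24.7 and 19.9 TPM, a separation of 0.45 ± 0.15 (SE) on the log2 scale (adjusted p = 0.0364). This call was lost without siCTRL replicate 1 (adjusted p = 0.12), siCTRL replicate 3 (0.1), siMITF replicate 2 (0.15) or siMITF replicate 3 (0.0586), and without the filter on low values (0.0916). In IFNγ-treated cells the libraries held 7.92, 11.5 and 11.0 TPM for siCTRL and 15.4, 18.6 and 21.2 TPM for siMITF, with no overlap. There the log2 fold change was 0.81 ± 0.15 (adjusted p = 0.00141), and at 0.05 no alternative lost that call (adjusted p up to 0.0107).

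IFNγ lowered CDK6 in siCTRL cells, by 0.55 ± 0.15 on the log2 scale (adjusted p = 0.0334), with every treated library below every untreated library. Without any of the siCTRL libraries, or without siCTRL + IFNγ replicate 1 or 3, the adjusted p was 0.0532 to 0.134, so the call rests on those libraries, and it was also lost without the filter on low values (0.095). In siMITF cells the IFNγ groups overlapped (log2 fold change -0.20, adjusted p = 0.39). CDK6 made up 4.20% ± 0.111 (SD, n = 3) of the summed CDK4 and CDK6 TPM in siCTRL, 3.37% ± 0.186 for siCTRL + IFNγ, 7.08% ± 0.708 for siMITF and 7.18% ± 0.578 for siMITF + IFNγ libraries. The lowest siMITF library, at 6.52%, stood above the highest siCTRL library, at 4.32%.

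CDKN2A encodes p16INK4a, which blocks CDK4 and CDK6, and from an upstream start p14ARF, which inhibits MDM2. The gene-level value sums transcripts of both, so a change cannot be assigned to either protein. CDKN2A shares 593 bases, 15.3% of its exonic length, with CDKN2B-AS1 on the opposite strand, which is not in the expression table. The gene lies on chr9:21967752-21995301 (GRCh38, minus strand), beside its close relative CDKN2B, which encodes p15INK4b. Promoters of CDKN2A and CDKN2B are shown because their RNA moved together: the upstream CDKN2A start (chr9:21995275-21995574), the downstream CDKN2A start (chr9:21974808-21975107) and the CDKN2B start (chr9:22009256-22009555). These stretches contain none of the E-box, M-box core or E2F letters, so none is in capitals. This does not hold for all INK4 genes. The CDKN2C entries at chr1:50960495-50960794 and chr1:50969995-50970294, not shown, hold 1 E-box each. The CDKN2C entry at chr1:50968456-50968755 and the CDKN2D entry hold none of these letters.
CDKN2A upstream promoter: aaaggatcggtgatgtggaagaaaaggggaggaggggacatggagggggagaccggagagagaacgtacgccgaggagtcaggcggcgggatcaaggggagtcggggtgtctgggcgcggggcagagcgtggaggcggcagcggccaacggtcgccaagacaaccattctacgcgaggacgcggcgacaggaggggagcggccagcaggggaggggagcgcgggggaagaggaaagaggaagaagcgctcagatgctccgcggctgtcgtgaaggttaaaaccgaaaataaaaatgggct
CDKN2A downstream promoter: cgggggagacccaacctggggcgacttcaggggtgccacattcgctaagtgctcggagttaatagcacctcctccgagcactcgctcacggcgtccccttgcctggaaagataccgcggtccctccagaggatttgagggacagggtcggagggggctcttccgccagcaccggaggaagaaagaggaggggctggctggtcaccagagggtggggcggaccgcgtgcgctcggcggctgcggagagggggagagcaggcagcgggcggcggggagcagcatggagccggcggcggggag
CDKN2B promoter: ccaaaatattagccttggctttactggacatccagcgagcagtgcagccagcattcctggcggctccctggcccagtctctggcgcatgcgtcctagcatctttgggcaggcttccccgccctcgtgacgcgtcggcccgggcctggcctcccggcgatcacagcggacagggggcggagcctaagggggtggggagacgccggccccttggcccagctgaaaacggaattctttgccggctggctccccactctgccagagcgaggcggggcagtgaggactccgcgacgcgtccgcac

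CDKN2A rose with siMITF and fell with IFNγ. It measured 129, 129 and 119 TPM in siCTRL libraries, 99.7, 101 and 94.4 TPM for siCTRL + IFNγ, 184, 180 and 182 TPM for siMITF, and 109, 136 and 131 TPM for siMITF + IFNγ libraries. The siMITF libraries stood above all others, the siCTRL + IFNγ libraries below all others, and the siCTRL and siMITF + IFNγ libraries overlapped. With siMITF the log2 fold change was 0.53 ± 0.08 (SE, adjusted p = 0.000279) without IFNγ and 0.34 ± 0.08 (adjusted p = 0.00652) with it, the latter lost with only the IFNγ-treated libraries in the fit (0.0572). IFNγ lowered CDKN2A by 0.35 ± 0.08 in siCTRL cells (adjusted p = 0.0133) and by 0.54 ± 0.08 in siMITF cells (adjusted p = 0.000486). The decrease in siCTRL cells missed the threshold without siCTRL replicate 1 (0.0555), siCTRL replicate 2 (0.055) or siCTRL + IFNγ replicate 3 (0.0643). Cells with both treatments did not differ detectably from untreated controls (log2 fold change -0.01, 95% interval -0.19 to 0.17).

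The other INK4 genes also rose with siMITF, and CDKN2B and CDKN2C also fell with IFNγ. CDKN2B measured 9.62, 9.97 and 8.08 TPM in siCTRL libraries and 20.4, 19.6 and 18.5 TPM in siMITF libraries, and 5.53, 6.81 and 5.23 TPM against 11.7, 13.6 and 12.2 TPM in the IFNγ-treated cells. These groups were fully separated, with siMITF raising CDKN2B by 1.01 ± 0.11 on the log2 scale (adjusted p = 1.68e-05) and by 0.98 (adjusted p = 2.35e-05) with IFNγ. IFNγ lowered it by 0.58 in siCTRL cells (adjusted p = 0.00388) and by 0.60 in siMITF cells (adjusted p = 0.00209). CDKN2C, which encodes p18INK4c, rose with siMITF by 0.88 and 0.69 (adjusted p = 1.15e-06 and 1.07e-05, without and with IFNγ), from a mean of 31.0 to 57.8 TPM in untreated cells. It fell with IFNγ by 0.28 in siCTRL cells (adjusted p = 0.0195, a call lost without siCTRL replicate 2 or siCTRL + IFNγ replicate 1 or 3) and by 0.48 in siMITF cells (adjusted p = 0.000446). CDKN2D, which encodes p19INK4d, rose with siMITF by 0.37 and 0.33 (adjusted p = 0.00789 and 0.0174, the second lost without siCTRL + IFNγ replicate 3 or siMITF + IFNγ replicate 2). With IFNγ it gave -0.22 (adjusted p = 0.152) in siCTRL cells and -0.27 in siMITF cells (0.0625, or 0.0319 with the block). Unlike CDKN2A, CDKN2B and CDKN2C were called higher with both treatments than in untreated controls, by 0.40 each (adjusted p = 0.0104, lost without siCTRL replicate 3, and 0.000572), with all libraries above the controls, and CDKN2D gave 0.10 (adjusted p = 0.391).

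Summed over the 4 genes, INK4 transcripts reached 174.7 ± 8.55 TPM (SD, n = 3) for siCTRL and 136.8 ± 5.68 TPM for siCTRL + IFNγ, and 270.9 ± 1.23 TPM for siMITF and 188.4 ± 15.2 TPM for siMITF + IFNγ. This sum takes the whole CDKN2A value, in which p16INK4a and p14ARF transcripts cannot be told apart. Set against the summed CDK4 and CDK6 TPM, the INK4 sum was 0.531, 0.463 and 0.461 in siCTRL libraries and 0.974, 0.862 and 0.884 in siMITF libraries. With IFNγ this ratio was 0.547, 0.428 and 0.420 in siCTRL cells and 0.834, 0.703 and 0.686 in siMITF cells. In either case all siMITF libraries stood above all siCTRL libraries, while the siCTRL libraries with and without IFNγ overlapped. CDKN2A, with p14ARF transcripts included, remained the largest part of the sum, at 13.7 times the CDKN2B level in siCTRL and 9.35 times in siMITF libraries. The summed TPM of 6 fibroblast markers moved in the same direction as the INK4 sum, at a much lower level. It was 6.22 to 7.83 TPM in siCTRL, 4.0 to 4.33 for siCTRL + IFNγ, 10.3 to 12.5 for siMITF and 6.38 to 7.24 for siMITF + IFNγ libraries. Single markers did not all do so: DCN had means of 0.601 TPM for siCTRL and 0.407 TPM for siMITF. COL1A2 had means of 0.0644 TPM for siMITF and 0.266 TPM for siMITF + IFNγ. Of the 6 genes, LUM and PDGFRA were high enough to be tested, PDGFRA only through its siMITF mean of 2.94 TPM. COL1A1, COL1A2 and COL3A1 stayed at or under 1.24 TPM in every library. LYZ among 6 leukocyte markers also moved in the direction of the INK4 sum, with means of 2.44 TPM for siCTRL and 4.74 TPM for siMITF. CD3E was listed at 0 and PTPRC at 0.732 TPM or less. The part of such markers in the INK4 values was not tested.

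**Figure D3:**
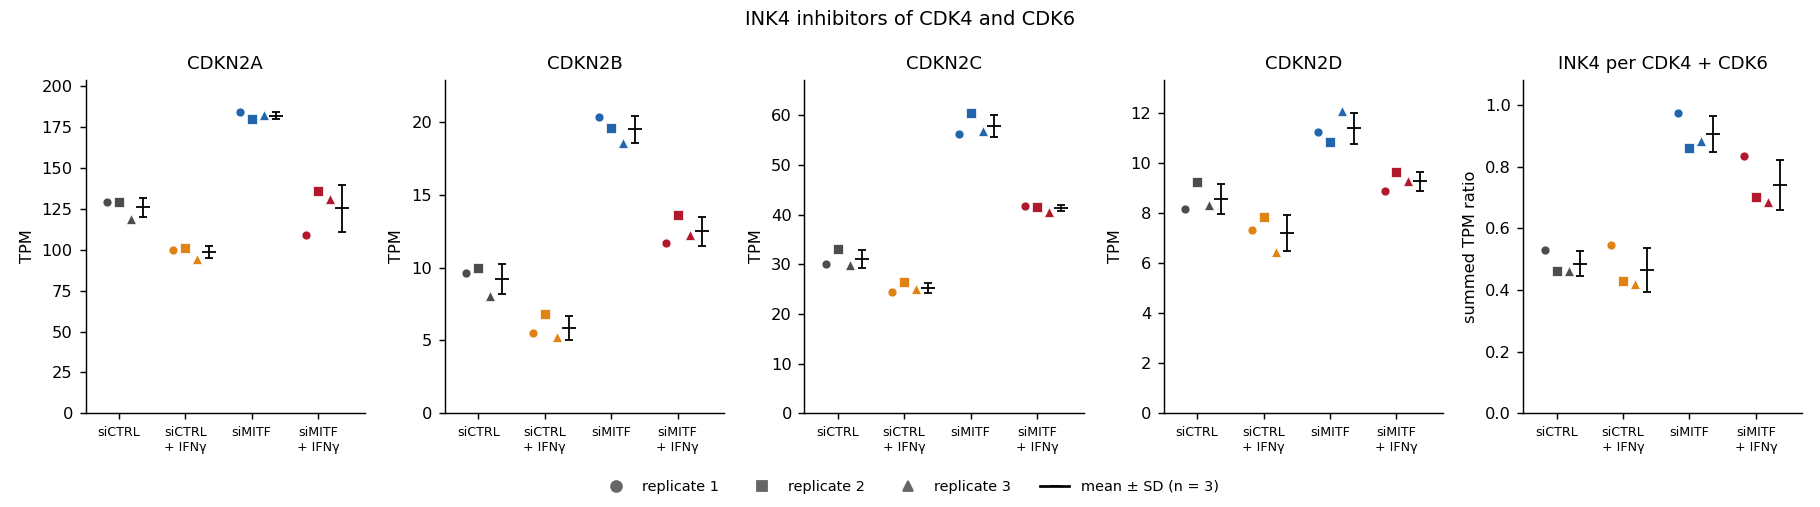
TPM of the 4 INK4 genes and, at the right, the ratio of their summed TPM to the summed TPM of CDK4 and CDK6, for each library (points, shaped by replicate number) with the mean and SD of 3 libraries; axes start at 0. The siMITF libraries are the highest in each gene, and the ratio has a mean of 0.485 in siCTRL and 0.906 in siMITF libraries. The CDKN2A value sums p16INK4a and p14ARF transcripts, also in the ratio.

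CDK2, the kinase that cyclin E activates at the end of G1, showed the largest change of the 9 tested genes. It measured 499, 559 and 504 TPM in siCTRL libraries and 194, 196 and 187 TPM in siMITF libraries. With IFNγ it measured 387, 495 and 449 TPM in siCTRL cells and 162, 169 and 170 TPM in siMITF cells. In both settings the groups stood far apart: mean TPM was 2.70 times higher in siCTRL than in siMITF cells without IFNγ and 2.66 times higher with it. The log2 fold changes were -1.43 ± 0.08 (SE, adjusted p = 6.86e-08) and -1.40 ± 0.08 (adjusted p = 9.27e-08), and they stayed between -1.32 and -1.49 under every alternative, with each call kept. IFNγ gave -0.23 in siCTRL cells (adjusted p = 0.0903) and -0.20 in siMITF cells (adjusted p = 0.107). All treated libraries lay below all untreated ones in both cases, as for 18.1% and 28.4% of all tested genes. Both comparisons passed with the replicate block (0.0181 and 0.0263), which called 3281 and 4556 of the 12773 tested genes.

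CDK2 lies on chr12:55966781-55972789 (GRCh38, plus strand), where its exons share 89 bases, 2.29% of its exonic length, with PMEL on the opposite strand. A further 565-base overlap, 14.5% of its exonic length, is with an opposite-strand long non-coding RNA gene that is not in the expression table. PMEL encodes the pigment cell matrix protein of melanosomes and is a well-known MITF target. PMEL measured from 4421 to 5347 TPM in siCTRL libraries and from 987 to 1174 TPM in siMITF libraries and fell by 2.16 on the log2 scale (adjusted p = 2.26e-07). Over the 12 libraries the log2 values of CDK2 and PMEL had a Pearson correlation of 0.986, given as a description since the conditions set most of it. PMEL stood at 9.26 times CDK2 in siCTRL libraries and at 5.60 times in siMITF libraries, so the ratio between the neighbours was not constant. How many reads of the shared bases were counted to either gene was not tested.

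**Figure D4:**
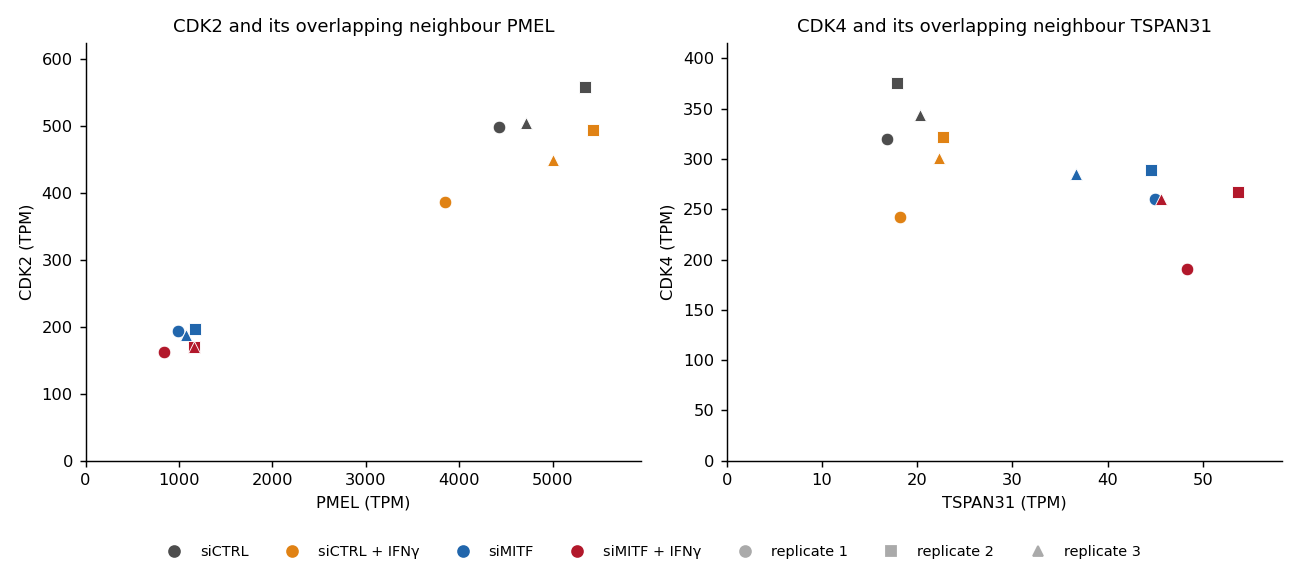
Left: CDK2 against PMEL TPM; right: CDK4 against TSPAN31 TPM; each point is a library, coloured by condition and shaped by replicate number, and axes start at 0. CDK2 and PMEL are both low in siMITF libraries, whereas TSPAN31, over libraries with and without IFNγ, spans 36.7 to 53.8 TPM with siMITF and 16.9 to 22.7 TPM with siCTRL.

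CCNE1, the cyclin partner of CDK2, was present at 14.3, 16.6 and 14 TPM in siCTRL libraries and at 11.6, 12.4 and 11.0 TPM in siMITF libraries. These siMITF libraries lay below all siCTRL libraries, as for 22% of all tested genes. The log2 fold change of -0.33 ± 0.13 (SE) had an adjusted p of 0.0707, or 0.019 with the block. In IFNγ-treated cells the values were 9.54, 14 and 12.2 TPM for siCTRL and 8.78, 9.97 and 11.3 TPM for siMITF, which overlapped (-0.22, adjusted p = 0.231). IFNγ in siCTRL cells gave -0.32 (adjusted p = 0.146, or 0.0401 with the block). CCNE2, the second E-type cyclin gene, fell with siMITF by 0.54 (adjusted p = 0.014) from a mean of 22.9 to 15.4 TPM, a call lost without siCTRL replicate 2 or siMITF replicate 3. With IFNγ it fell by 0.44 (adjusted p = 0.0387), which was lost in 7 of the fits that left out 1 library, with an adjusted p of up to 0.138 over all alternatives. CDC25A, the phosphatase that removes inhibitory phosphates from CDK2, fell with siMITF by 1.11 ± 0.16 (adjusted p = 0.000145) and by 1.19 ± 0.16 (adjusted p = 9e-05) with IFNγ. It measured 35.8, 42.7 and 40.2 TPM in siCTRL libraries and 17.3, 18.5 and 17.4 TPM in siMITF libraries.

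The CIP/KIP inhibitors were uneven in level. CDKN1A, which encodes p21, was nearly silent: its values were 0.0904, 0.149 and 0.0283 TPM in siCTRL, 0.0176, 0.148 and 0.182 for siCTRL + IFNγ, 0.0194, 0.0242 and 0.0466 for siMITF, and 0.0428, 0.270 and 0.0611 TPM for siMITF + IFNγ libraries. All groups overlapped at this level and no fold change is given. CDKN1B, which encodes p27, measured 53.9, 62.1 and 54.5 TPM in siCTRL libraries and 68.5, 66.8 and 63.6 TPM in siMITF libraries. CDKN1B thus lay higher in siMITF libraries without overlap, as did 33% of all tested genes. Its log2 fold change of 0.22 ± 0.08 (SE) just missed the threshold (adjusted p = 0.0528) and passed with the block (0.0129). In siMITF cells IFNγ lowered CDKN1B to 52.6, 57.6 and 54.7 TPM, by 0.27 ± 0.08 on the log2 scale (adjusted p = 0.0359). That call was lost on leaving out 7 of the 12 libraries in turn, namely siCTRL replicate 3, siCTRL + IFNγ replicate 3, any siMITF replicate, and siMITF + IFNγ replicate 1 or 3, with adjusted p up to 0.123. In siCTRL cells IFNγ gave 47.1, 54.6 and 51.7 TPM, overlapping the untreated libraries (log2 fold change -0.15, adjusted p = 0.268). CDKN1C, the third CIP/KIP gene, had means of 0.308, 0.412, 1.79 and 1.98 TPM in siCTRL, siCTRL + IFNγ, siMITF and siMITF + IFNγ libraries and was too low to be tested. Per CDK2 transcript, CDKN1B stood at 0.109 ± 0.00179 (SD, n = 3) in siCTRL, 0.116 ± 0.00564 for siCTRL + IFNγ, 0.344 ± 0.00758 for siMITF and 0.329 ± 0.00960 for siMITF + IFNγ libraries.

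RB1, the pocket protein that these kinases phosphorylate, varied little. It measured 45.8, 51.7 and 47.2 TPM in siCTRL and 52.3, 57.1 and 50.5 TPM in siMITF libraries, which overlapped (log2 fold change 0.14, adjusted p = 0.247). In IFNγ-treated cells the siCTRL libraries held 37.4, 45.8 and 43.0 TPM and the siMITF libraries 52.1, 52.7 and 48.3 TPM, without overlap, and RB1 was higher by 0.28 ± 0.09 on the log2 scale (adjusted p = 0.0303). This call was lost without siCTRL + IFNγ replicate 1 (0.0952) or 3 (0.0616), without siMITF + IFNγ replicate 1 (0.0613) or 2 (0.0914), and with only those 6 libraries in the fit (0.118). IFNγ in siCTRL cells gave -0.20 (adjusted p = 0.183, or 0.0476 with the block), and in siMITF cells -0.06 (adjusted p = 0.665). Of the other pocket proteins, RBL2, which encodes p130 of resting cells, rose with siMITF by 0.31 (adjusted p = 0.0222, lost without siCTRL replicate 1 or 3 or siMITF replicate 1 or 2) and gave 0.23 with IFNγ (0.0781, or 0.0352 with the block). RBL1, which encodes p107, gave -0.24 and -0.21 (adjusted p = 0.24 and 0.298, or 0.0274 and 0.0453 with the block).

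Around these genes, the list of other cyclins, CDKs, inhibitors and pocket proteins had 8 of 12 genes tested, of which 4 rose with siMITF (CDKN2B, CDKN2C, CDKN2D and RBL2) and 1 fell (CCNE2), beside 21% and 13.8% of all tested genes, with a median log2 fold change of 0.20 against 0.06. With IFNγ, 3 fell in each background of cells, CDK1, CDKN2B and CDKN2C, beside 6.14% of all genes in siCTRL cells and 12.2% in siMITF cells. CDK1, the mitotic kinase, fell by 0.29 in siCTRL cells (adjusted p = 0.0233, lost without siCTRL replicate 1 or 2 or siCTRL + IFNγ replicate 1 or 3) and by 0.38 in siMITF cells (adjusted p = 0.00316). The S-phase cyclin CCNA2 was too variable to compare, at 26.1, 2.30 and 1.95 TPM in the siMITF + IFNγ libraries. CCND2, CCNA1, CDK3 and CDKN1C did not reach the level tested.

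The E2F factors and their dimerization partners were all measurable (10 of 10). With siMITF 2 rose and 1 fell, beside 21% and 13.8% of all genes, and with IFNγ 1 fell in siCTRL cells and 3 in siMITF cells, beside 6.14% and 12.2%. With siMITF, E2F5, a repressive E2F, rose by 0.71 (adjusted p = 0.000219) and E2F1, an activating E2F, rose by 0.50 (adjusted p = 0.00966), while TFDP2 fell by 0.34 (adjusted p = 0.0142, up to 0.0696 without 1 of 3 libraries). E2F5 alone also rose in the IFNγ-treated comparison, by 0.78 (adjusted p = 0.000116). IFNγ lowered TFDP1 by 0.34 in siCTRL cells (adjusted p = 0.0403, lost on leaving out any of 9 libraries) and by 0.41 in siMITF cells (adjusted p = 0.00984), and in siMITF cells it lowered E2F1 by 0.60 (adjusted p = 0.00652) and E2F7 by 0.66 (adjusted p = 0.0173). No factor of this list rose with IFNγ, and 1 did so in siMITF cells after quantile normalization.

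E2F target genes, which carry out DNA replication, were lower with IFNγ and went both ways with siMITF, and 3 of the 27 (CCNE2, CCNA2 and E2F1) also stand in the lists above. In siMITF cells IFNγ lowered 17 of 27 and raised none, beside 12.2% of all genes called lower, with a median log2 fold change of -0.52 against -0.10 over all genes. The 4 largest decreases were those of TYMS, the thymidylate synthase, by 0.84 (adjusted p = 3.02e-06), TK1, the thymidine kinase, by 0.76, MCM2, a helicase subunit, by 0.71, and CDC45, a helicase activator, by 0.68. In siCTRL cells IFNγ lowered 8 of 27 and raised none, beside 6.14% of all genes, with a median of -0.33. TYMS led with a decrease of 0.60 (adjusted p = 0.0001). With the replicate block 23 were lower, where 3281 of all 12773 tested genes were called, 1235 of them higher. In siCTRL cells 4 targets were lower without siCTRL replicate 2 or 3 or without siCTRL + IFNγ replicate 1 or 3, and 12 without siCTRL + IFNγ replicate 2, while in siMITF cells the removal of a library gave 12 to 21. Mitochondrial transcripts were also higher with IFNγ, at medians of 14.2 and 15.7% in siCTRL cells and 12.8 and 16.1% in siMITF cells, and with those genes left out 11 and 19 of the 27 targets were lower. With siMITF alone 3 targets rose and 3 fell, beside 21% and 13.8% of all genes. Among them were UHRF1, which rose by 0.55, and MCM4, CCNE2 and GINS1, which fell by 0.54, 0.54 and 0.53. With the block 8 rose and 6 fell, where 6094 of all tested genes were called, 3684 of them higher. In the IFNγ-treated comparison 6 fell and none rose, beside 14.7% and 18.4% of all genes, with the GINS1 decrease of 0.70 the largest (adjusted p = 0.000295). With the block 13 fell and 1 rose, where 5912 of all tested genes were called, 3232 of them higher. The 6 became 3 without siCTRL + IFNγ replicate 2 or siMITF + IFNγ replicate 1 and 12 without siCTRL + IFNγ replicate 1.

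Activators and turnover factors of the G1 regulators had 22 of 23 genes tested. With siMITF 2 rose and 4 fell, beside 21% and 13.8% of all tested genes. Beside CDC25A, described above, CRYAB, a chaperone that recruits cyclin D1 to its ligase, fell by 0.56 (adjusted p = 0.00267), and CCNH, the cyclin of the CDK-activating kinase, fell by 0.41 (adjusted p = 0.00482). CRYAB was low, with means of 3.41 TPM for siCTRL, 1.948 for siCTRL + IFNγ, 1.996 for siMITF and 1.298 for siMITF + IFNγ. Only its siCTRL mean reached the 2 TPM needed for testing. In the IFNγ-treated comparison 1 rose, the ligase scaffold CUL1 by 0.37 (adjusted p = 0.00448), and 5 fell, beside 18.4% and 14.7% of all genes. Among the 5 were CCNH by 0.38 and CRYAB by 0.36, the latter lost without any of 5 libraries. With the block 4 rose and 5 fell, where 5912 of all tested genes were called, 3232 of them higher. Beside 6.14% of all genes, IFNγ lowered 3 in siCTRL cells: CRYAB by 0.58, MYC by 0.55 (adjusted p = 0.00106) and CKS1B by 0.36, the last up to an adjusted p of 0.114 without 1 of 3 libraries. With the block 6 were lower and 1 higher, where 3281 of all tested genes were called, 1235 of them higher. In siMITF cells IFNγ lowered 6, beside 12.2% of all genes, among them CDC25A by 0.51 (lost without any of 7 libraries), CKS1B by 0.50, SKP2 by 0.44 and MYC by 0.39. SKP2 and CKS1B belong to the ligase that marks p27 for degradation. No gene of this list rose with IFNγ, whereas 1 or 2 did with the block or under another scaling. The 6 in siMITF cells became 3 without siMITF replicate 1 or siMITF + IFNγ replicate 1 and 2 without siMITF replicate 2.

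**Figure D5:**
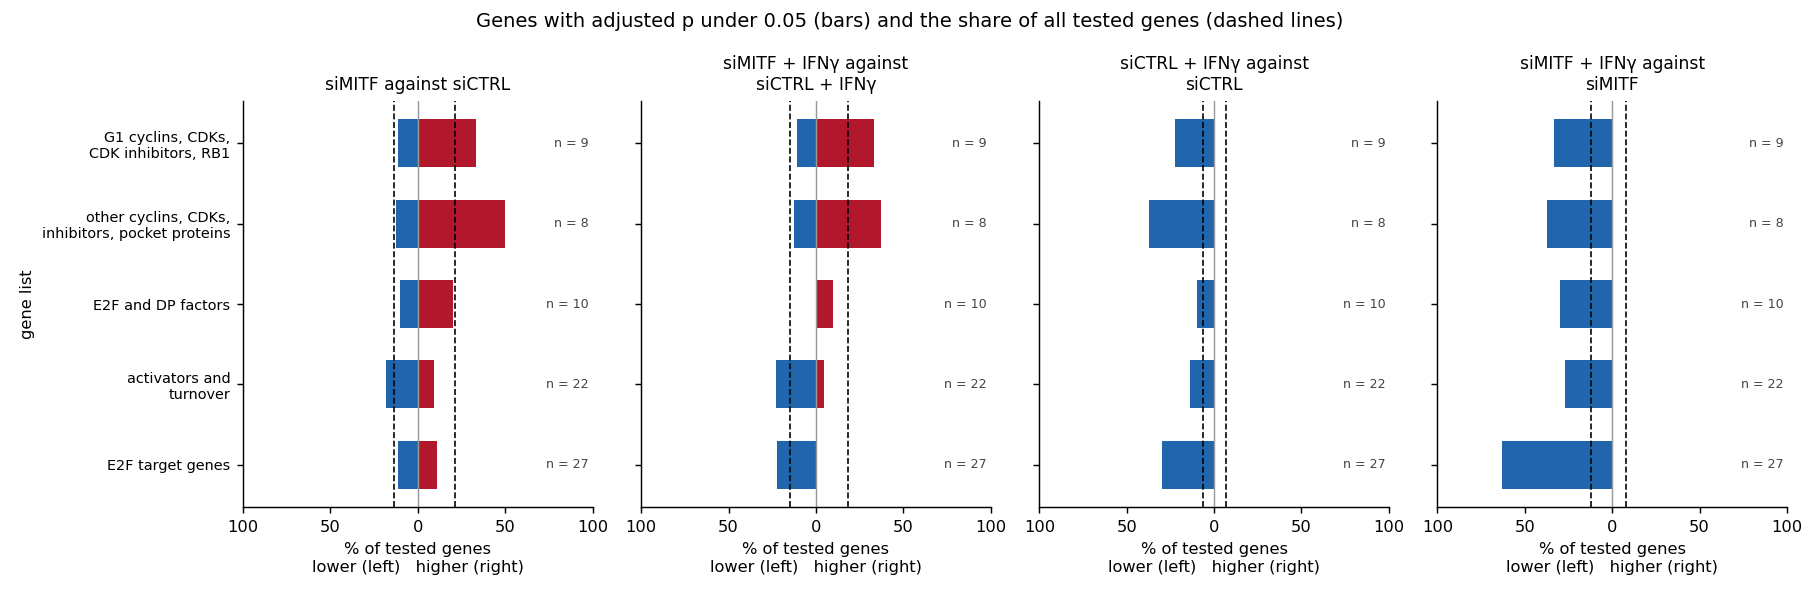
Share of the tested genes of each list with an adjusted p under 0.05, lower to the left in blue and higher to the right in red, in the 4 comparisons; dashed lines give the same share over all 12773 tested genes and n the genes tested. No list has a red bar in the IFNγ comparisons, and E2F target genes in siMITF cells (17 of 27 lower) have the longest bar.

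Both treatments together were set against untreated control cells. CDK2, CDK4 and CCNE1 fell, beside 23.4% of all genes called lower, and none of the 9 tested genes rose, beside 21.1% called higher. CDK2 was lower by 1.63 ± 0.08 (SE, adjusted p = 8.09e-09) and alone passed the fold limit (background 8.75%). CDK4 was lower by 0.54 ± 0.13 (adjusted p = 0.00509) and CCNE1 by 0.54 ± 0.13 (adjusted p = 0.00548), each with all combined-treatment libraries below all control libraries, as for 29.4% of all tested genes. These calls held in every alternative that was run. CDK6 gave 0.26 (adjusted p = 0.199, or 0.0415 with the block), and CCND3, CDKN1B and CDKN2A gave 0.02, -0.05 and -0.01. This comparison shares its libraries with the others, so its values stand beside theirs and do not add to them.

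Whether IFNγ acted differently in siMITF and siCTRL cells was tested by the interaction term. None of the 9 genes passed it at an adjusted p under 0.05, beside 0.947% of all tested genes. None had an unadjusted p under 0.05 either, which 980 of the 12773 tested genes had. The estimate was 0.03 for CDK2 (95% interval -0.23 to 0.29), 0.35 for CDK6 (-0.12 to 0.83), -0.23 for CCND3 (-0.54 to 0.08) and -0.19 for CDKN2A (-0.44 to 0.06). Thus a different IFNγ effect in siMITF cells was not shown for CCND3 or CDKN1B, which fell with IFNγ in siMITF cells, nor for CDK6, which fell in siCTRL cells. All 4 intervals include 0.

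The genes whose log2 values followed each called gene most closely over the 12 libraries, outside the lists, are given as a description, since the 4 conditions shape all of them. CDK2 was followed by BZW2 (Pearson correlation 0.997) and BTBD10 (0.996), and 375 of 11852 genes exceeded 0.95. For CDK6 they were NEDD9 (0.989) and MAP1B (0.974), for CDKN2A LSM7 (0.983) and HTRA2 (0.978), and for CCND3 CSNK1E (0.995) and VPS4A (0.992). CDK4 was followed by POMGNT1 (0.993) and ADCY1 (0.992), CCNE1 by SLC39A14 (0.981) and GSTCD (0.974), CDKN1B by RBM8A (0.981) and HNRNPH1 (0.968), and RB1 by IBTK (0.983) and ZFR (0.978). Fewer genes came this close to RB1 (15 above 0.95) than to CDK4 (92) or CCND3 (93).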

How the data were processed

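RNA-seq of 12 libraries of 624Mel cells was analysed, 3 in each of 4 conditions taken from the sample labels. According to the methods and the submitters' processing notes, the authors trimmed reads with Trimmomatic 0.39, quantified transcripts with kallisto against the Ensembl GRCh38 transcriptome and deposited gene-level TPM values. The Ensembl release and the tool that summed transcripts to genes are not given in the sources used here. DESeq2 1.26.0 was used by the authors on counts that are not used here. TPM divide by the library's total, so a large rise in some genes lowers the rest, and depth is lost.

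Values were taken as log2(TPM + 1) for those 12773 genes whose mean reached 2 TPM under any condition and fitted with limma 3.58.1 in R 4.3.3 over all 4 conditions, with a mean-variance trend and two-sided p-values adjusted by Benjamini-Hochberg over all tested genes. Calls needed an adjusted p under 0.05. The steps were tested on simulated data. No sample was left out, and no libraries were identical. Sums and ratios of TPM were given without tests. Positions and exon overlaps came from GENCODE 44 (GRCh38) and promoters from RefSeq (GRCh38.p14), with 8 of the 10 genes matched. Tables were handled in pandas 2.3.3 and numpy 2.4.6 and plots drawn with matplotlib 3.10.9 (Python 3.11.15).

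The 10 genes and all lists were chosen with earlier results of these data known. All 10 genes and all tested genes of the list of other cyclins, CDKs, inhibitors and pocket proteins are named, and from each other list up to 4 called genes with the largest absolute log2 fold change in each siMITF or IFNγ comparison. Results that need certain items of these lists are not reported here. Same-numbered libraries of different conditions deviated together: the correlation of their deviations from the condition means was above 0.1 in all 18 pairs (median 0.28). In 36 pairs with different numbers the median was -0.20. The main fit was unpaired, without a term for the replicate number, and the replicate block was run as an alternative. Alternatives were pseudocounts of 0.1 and 0.5, no filter, a mean of at least 5 TPM, quantile normalization, centring on the median, mitochondrial genes left out, no trend, only the conditions compared, the replicate block, an adjusted p under 0.01, and leaving out each library.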

Additional observations from a re-analysis of the deposited data

How the results depend on the processing

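Of 1233 values of single genes of the 10 under an alternative, 1144 kept their side of the threshold, 34 lost the call and 55 gained one. The sign differed between alternatives for 9 of 54 fold changes or interactions, between -0.14 and 0.23, of which 0 were called under any setting. For siMITF against siCTRL without IFNγ, the 4 genes called became 7 with quantile normalization, centring on the median, mitochondrial genes left out, only those libraries in the fit, or the replicate block, and 3 to 6 without single libraries. With IFNγ the 4 became 7 with centring and 2 with only those libraries in the fit, and 3 to 5 without single libraries. For IFNγ in siCTRL cells the 2 became 6 with centring, 7 with the replicate block, 1 without the filter on low values or with only those libraries in the fit, 0 at an adjusted p under 0.01, and 0 (without siCTRL replicate 1 or 2 or siCTRL + IFNγ replicate 3) to 4 (without siCTRL + IFNγ replicate 2). For IFNγ in siMITF cells the 3 became 5 with the block and 1 at an adjusted p under 0.01, and 2 to 4 without single libraries. The causes were not tested. The replicate block lost none of the calls of the 10 genes.

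Over all genes, the 1652 calls for IFNγ in siCTRL cells became 3281 with the block, 2825 with quantile normalization, 2814 with centring and 1078 with only those libraries in the fit. In siMITF cells 2574 became 4556 with the block and 3996 with quantile normalization. For siMITF with IFNγ, 4229 became 2736 with only those libraries. The interaction's 121 became 294 with quantile normalization, 276 with the block, 263 with centring, 220 without mitochondrial genes, 68 with a pseudocount of 0.1 and 65 at a mean of at least 5 TPM. With TPM alone, counting error cannot be given, which limits CDKN1A and CDKN1C most.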
